A study of Mus musculus with 8 samples.

Results

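The genes described here are 10 genes of late spermatid differentiation, chosen by name from the 55357 genes in the deposited tables: the protamines *Prm1*, *Prm2* and *Prm3*, the transition proteins *Tnp1* and *Tnp2*, the outer dense fibre gene *Odf1*, the fibrous sheath anchoring genes *Akap3* and *Akap4*, the actin-bundling gene *Fscn3* and the mitochondrial capsule gene *Smcp*. The question put to the data was whether RNA of these genes was present in 15-day germ cells at all, and whether it differed between genotypes. RNA-seq had been performed on germ cells of 8 male C57BL/6 mice, all carrying floxed *Mgat2* alleles. The 4 controls were *Mgat2*[F/F] and the 4 *Mgat2* cKO mice were *Mgat2*[F/F]:*Stra8*-iCre, in which the Cre transgene is first expressed in spermatogonia and removes *Mgat2*, the gene of a transferase that acts in complex N-glycan synthesis. The cells came from digested and filtered testis tubules, for which no sort is described, and each library is labelled as a separate sample of its genotype.

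In the mouse, the first wave of germ cells is already in meiosis at about this age, and spermatids form later. In spermatids, histones are replaced first by transition proteins and then by the protamines PRM1 and PRM2. These small basic proteins pack DNA tightly into the sperm head. At the same time the tail is built: outer dense fibres run along the axoneme, the fibrous sheath of the principal piece anchors protein kinase A through AKAP3 and AKAP4, and mitochondria are wound around the midpiece. Many of these genes depend on CREM, an activator of haploid germ cells that binds cAMP-response elements.

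The libraries held 12584726 to 15907505 counts each, so that 3 counts, used here as the least that a library can be said to show, were worth 0.189 to 0.238 CPM (counts scaled to the library total). *Mgat2* had 1028, 490, 1017 and 766 counts in controls and 531, 310, 539 and 226 in cKO (edgeR log2 fold change -1.05, adjusted p = 0.47), so control 2 lay below cKO 1 and cKO 3. Besides germ cell markers, all 10 Sertoli cell markers were above 3 counts in every library. Their sum ran from 5987 to 7384 TPM (the length-scaled abundance that RSEM gives) in controls and from 6223 to 7363 TPM in cKO, most of it *Clu*, at 4162 ± 326 and 4348 ± 353 TPM. Leydig cell markers summed to 36.9 to 96.6 and 52.3 to 78.8 TPM. Control 1 was the highest library in the summed TPM of the late meiotic and sheath genes described here, and medians over those lists are given with and without it.

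Of the 10 genes, *Akap3* alone gave more than 3 reads in every library. *Prm1*, *Prm3* and *Tnp2* were at 0 in all 8 libraries. *Prm2* and *Smcp* gave 1 read each in all libraries together, *Fscn3* 7, *Odf1* 10, *Tnp1* 14 and *Akap4* 15, against 355 for *Akap3*. The 10 genes thus held 403 reads in all, 37 to 70 per library, and *Akap3* supplied 88.1% of them. For comparison, 65.1% of the 21627 protein-coding genes in the table passed 3 counts in every library, and 15.3% were at 0 in every library. Over all 55357 genes the shares were 29.1% and 46.9%.

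**Figure D1:**
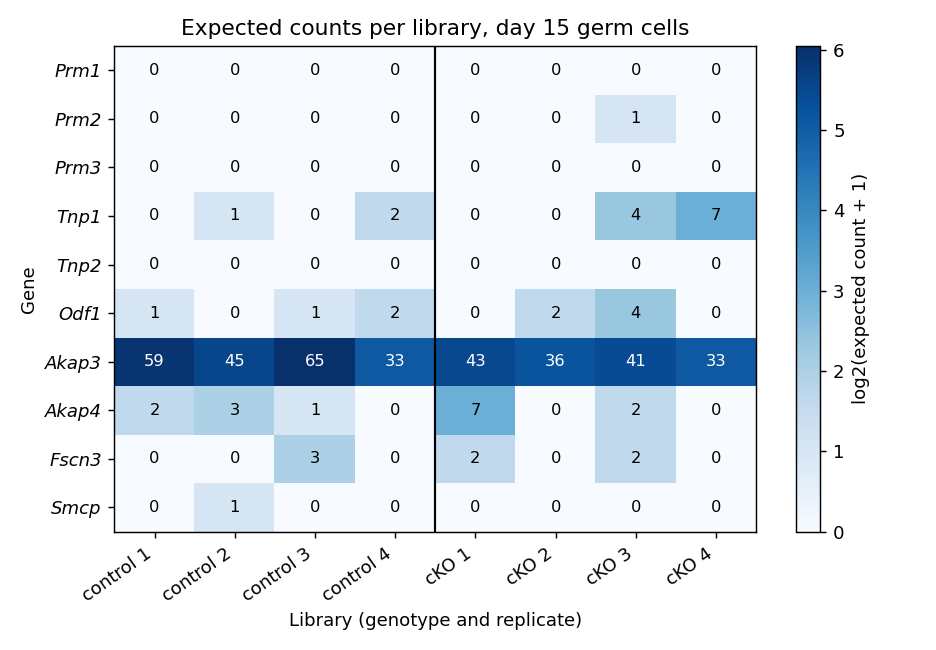
Expected counts (reads assigned by RSEM) of the 10 genes, in rows, in each of the 8 libraries, in columns, with controls to the left of the black line and cKO to the right. Colour gives log2(count + 1), and the *Akap3* row, at 33 to 65 counts, is the only one above 7.

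The starts of these genes were examined for the cAMP-response element, because the data turn on which of them already gave RNA. The RefSeq table of gene starts held 9 of the 10 genes (all but *Odf1*) in 10 windows of 250 bases, and every window was found once in GRCm39. The letters TGACGTCA were in none of them, TGATGTCA was in the windows of 3 genes and TGACTTCA in that of 1 gene, on either strand. Among all 32851 windows of the table, 1.55% held the first, 2.93% the second, 1.31% the third and 5.66% any of them. The letters were chosen after the windows had been seen, and a match does not show that a factor binds there. The 4 matches follow, 5′ to 3′ on the strand of the gene, with the 8 matching bases in capitals.

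Prm1: ggtcctggtcctcttTGACTTCAtaattcc
Tnp1: tgtagcaaaggttagTGATGTCAcaagaga
Akap3: ttgctatagaaacagTGATGTCActagctg
Akap4: tctctatagaaacagTGATGTCAtgaattt

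These windows lie at chr16:10614737-10614766 (minus strand), chr1:73055138-73055167 (minus), chr6:126830024-126830053 (plus) and chrX:6933704-6933733 (plus), and the capitals begin 64, 94, 22 and 35 bases before the RefSeq start. In the GENCODE annotation, the *Prm1* window overlaps an exon of the canonical *Prm1* transcript, and the *Tnp1* window overlaps exons of other *Tnp1* transcripts and of the lncRNA *Teshl*. The *Akap3* window overlaps an exon of the opposite-strand lncRNA *Gm67036*, and no annotated gene spans the *Akap4* window. The *Akap3* and *Akap4* windows share a run of 20 bases, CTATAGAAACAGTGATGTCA, which no other window of the 32851 held. In these libraries *Akap3* had 355 reads and *Akap4* 15, so the shared letters stood before 1 gene with reads in every library and 1 with libraries at 0.

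The protamine genes and *Tnp2* gave almost no reads. *Prm1*, *Prm2*, *Prm3* and *Tnp2* lie together on chromosome 16 between 10605747 and 10623703, on the minus strand. These 4 genes gave 1 read in all 8 libraries (95% exact Poisson interval 0.0253 to 5.57 reads, which covers counting error only), a read of *Prm2* in cKO 3. For a gene at 0 in all libraries, the upper bound of the exact interval was 3.69 reads, or 0.0313 CPM over the pooled libraries. The lncRNA *Gm46563* lies on the opposite strand and covers 63.7% of the exonic bases of *Prm1*, 48.8% of those of *Tnp2* and 6.29% of those of *Prm2*. The libraries were not stranded, but *Gm46563* too was at 0 in every library. Genes on either side of this cluster were detected: *Socs1*, an inhibitor of cytokine signalling that lies 1872 bp from *Tnp2*, had a mean of 5.95 TPM (4.23 to 7.76 over the libraries), and *Rmi2*, of a DNA repair complex and 29208 bp from *Prm1*, had 2.74 TPM (2.25 to 3.51). These neighbours were picked with their values in view.

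*Tnp1* (chromosome 1, 73054221 to 73055208, minus strand, 2 exons) encodes the transition protein that enters spermatid chromatin as histones leave. Its counts were 0, 1, 0 and 2 in control libraries 1 to 4 and 0, 0, 4 and 7 in cKO libraries 1 to 4. Reads were thus absent from 2 libraries of each genotype, and only cKO 3 and cKO 4 passed 3 counts. Because the transcript is only 436 bases long, a single read was worth 0.854 TPM, against 0.0394 TPM for a read of *Akap3*. On that scale the means were 0.635 ± 0.824 TPM in controls and 2.36 ± 2.93 TPM in cKO (SD, n = 4 each). *Tnp1* therefore passed the expression filter (at least 1 TPM in at least 1 library) on a handful of reads.

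Of the reads of the tail genes, almost all were of *Akap3*. *Akap3* (chromosome 6, 126830055 to 126851271, plus strand, 6 exons) had 59, 45, 65 and 33 counts in control libraries 1 to 4. In cKO libraries 1 to 4 it had 43, 36, 41 and 33 counts. Every library was thus well above 3 counts, and the genotypes overlapped, since control 4 was as low as cKO 4. Per length, the means were 1.96 ± 0.367 TPM in controls and 1.54 ± 0.142 TPM in cKO (SD, n = 4 each), below the median of 9.34 TPM over all genes tested. The lncRNA *Gm67036* shares 6.21% of the exonic bases of *Akap3* on the opposite strand, and it has no row in the table used here. Of the genes beside *Akap3*, *Ndufa9*, of respiratory complex I, had a mean of 105.6 TPM and *Dyrk4*, a kinase gene, 0.256 TPM.

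*Akap4* (chromosome X, 6933758 to 6944850, plus strand, 6 exons), the major fibrous sheath protein, had 2, 3, 1 and 0 counts in controls and 7, 0, 2 and 0 in cKO. Only cKO 1 passed 3 counts, and both genotypes held a library at 0. *Odf1* (chromosome 15, 38219447 to 38226979, plus strand, 2 exons), a main component of the outer dense fibres, had 1, 0, 1 and 2 counts in controls and 0, 2, 4 and 0 in cKO. *Fscn3* (chromosome 6, 28427788 to 28438621, plus strand, 7 exons), the testis paralogue of fascin, had 0, 0, 3 and 0 counts in controls and 2, 0, 2 and 0 in cKO. It shares 2.78% of its exonic bases with *Gcc1* on the opposite strand, which had 686 to 884 counts per library. *Smcp* (chromosome 3, 92491171 to 92496317, minus strand, 2 exons), of the capsule around sperm mitochondria, had 1 count in control 2 and 0 in the other libraries. Among the 9 genes other than *Akap3*, only 4 of 72 values passed 3 counts, and their sums were 17 reads in controls and 31 in cKO.

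Only *Akap3* and *Tnp1* passed the expression filter and entered the comparison of genotypes. Neither was called by edgeR's quasi-likelihood test at an adjusted p (Benjamini-Hochberg) under 0.05, against 0.0396% of the 20187 genes tested (8 genes, all lower in cKO). *Akap3* had a log2 fold change of -0.39 in cKO over control (SE 0.25, 95% interval -0.94 to 0.16, edgeR adjusted p = 0.67), from means of 3.40 ± 0.770 and 2.60 ± 0.302 normalized CPM. *Tnp1* had a log2 fold change of 1.71 (SE 1.42, 95% interval -1.39 to 4.81, edgeR adjusted p = 0.73). Neither passed an unadjusted p of 0.05, under which 8.9% of all genes lay (6.28% lower and 2.62% higher in cKO), and DESeq2 did not call *Akap3*, while it called 1.51% of all genes (1.42% as lower in cKO). DESeq2 gave *Tnp1* no adjusted p. The interval of *Tnp1* spans a fall as well as a rise, and without cKO 4 its log2 fold change was 0.70. When the filter was left out, *Akap4*, *Odf1*, *Fscn3*, *Prm2* and *Smcp* could be fitted too, and their adjusted p in edgeR's quasi-likelihood test lay between 0.72 and 0.96. No fold change is given for them, since nearly all their libraries held 3 counts or fewer. *Prm1*, *Prm3* and *Tnp2*, with no read, were never tested.

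**Figure D2:**
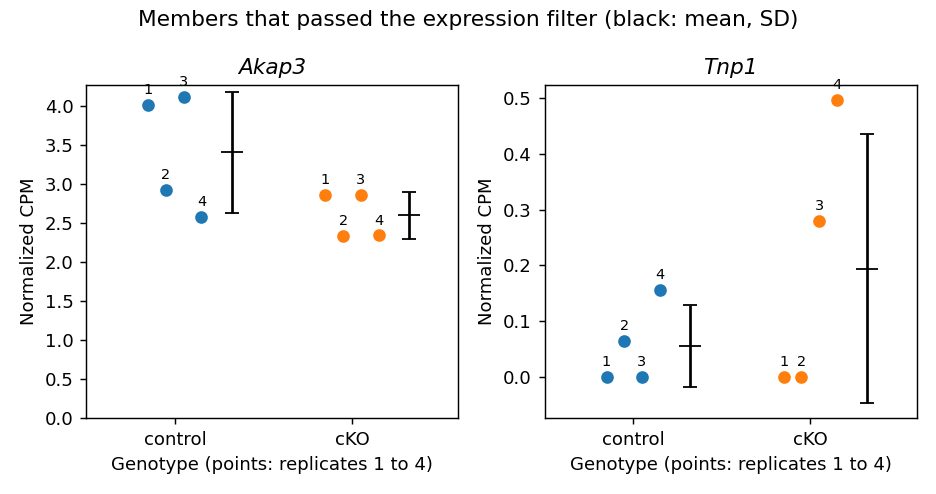
Normalized CPM of *Akap3* (left) and *Tnp1* (right), the genes that passed the filter, by genotype, with 1 point per library numbered by replicate and the mean and SD in black. The *Akap3* points of control 2 and control 4 lie within or near the cKO range of 2.33 to 2.86, and the *Tnp1* difference rests on cKO 3 and cKO 4.

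Across the 8 libraries, the genes whose log2(TPM + 1) followed that of *Akap3* most closely were *Lztfl1*, *Qsox2*, *Tgfa*, *Gm884* and *Cntnap2*, with Pearson's r of 0.989, 0.978, 0.974, 0.972 and 0.967 among 16488 genes. These values describe 8 libraries only, and 156 genes had r above 0.9.

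Other genes of the same structures were examined next. Among 15 other genes of the fibrous sheath and outer dense fibres, 10 passed 3 counts in every library (66.7%, beside 65.1% of all protein-coding genes) and 2 (*Ropn1* and *Aldoart1*) were at 0 throughout. The most abundant were *Ropn1l*, a partner of the anchoring proteins, *Odf2*, a dense fibre and centrosomal component, *Spa17* and *Tcp11*. *Odf2* had 176 ± 63.9 TPM in controls and 114 ± 11.5 TPM in cKO, and *Ropn1l* had 212 ± 146 and 81.1 ± 56.6 TPM (SD, n = 4 each). None of the 11 genes tested was called by edgeR. Under an unadjusted p of 0.05 lay 5, all lower in cKO, beside 6.28% of all genes. A negative log2 fold change was found in 10 of 11, beside 48.6% of all genes. Their median log2 fold change was -0.90, against 0.01 over all genes. It was -0.53 without control 1, -1.10 without cKO 1 and -0.73 in replicates 2 to 4 alone. DESeq2, which called 1.51% of all genes, called 2 of the 11. These were *Odf4* (edgeR log2 fold change -1.95, DESeq2 adjusted p = 0.00013) and *Fsip2* (-1.27, DESeq2 adjusted p = 0.00028). Every cKO library lay below every control in 3 of the 11 (*Odf4*, *Fsip2* and *Tsga10*), beside 3.03% of all genes. These 3 were named after their values were seen.

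Of 7 other genes of the mitochondrial sheath, 2 passed 3 counts in every library. *Gpx4*, the selenoenzyme that also forms the sperm capsule, had 339 ± 111 TPM in controls and 311 ± 101 TPM in cKO, while *Gk2*, a testis glycerol kinase, had 29.6 ± 28.4 and 9.39 ± 9.45 TPM. None of the 5 tested was called by edgeR or DESeq2, and none lay under an unadjusted p of 0.05. Their median log2 fold change was -0.97, or -0.51 without control 1 and -1.08 without cKO 1. It ran from -1.42 to -0.23 over the other alternatives.

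Of 17 genes that act in histone replacement, 12 passed 3 counts in every library (70.6%, beside 65.1% of all protein-coding genes). Another 4 passed it in no library, like *Prm1*, *Prm2*, *Prm3* and *Tnp2*. These were *H1f7* and *H2al1a*, at 0 throughout, and *H1f9* and *H2al2a*. The replacement histone gene *H3f3b* had 854 ± 56.6 TPM in controls and 784 ± 4.41 in cKO, and *Hspa2*, a chaperone of transition proteins, had 324 ± 145 and 164 ± 41.1 TPM. *Brdt*, which encodes a reader of acetylated histones, had 91.1 ± 28.7 and 60.0 ± 3.95 TPM, and it was called by DESeq2 (adjusted p = 0.038) but not by edgeR (adjusted p = 0.35). Every cKO library of *Brdt* lay below every control, as in 3.03% of all genes. EdgeR called none of the 13 tested and DESeq2 called 1, beside 1.51% of all genes. Under an unadjusted p of 0.05 lay 2, both lower in cKO, beside 6.28% of all genes. The median log2 fold change was -0.12, or -0.03 without control 1 and -0.23 without cKO 1.

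Of 17 genes that regulate spermatid transcripts, 16 passed 3 counts in every library (94.1%, beside 65.1% of all protein-coding genes), and these 16 were tested. The other, *Fhl5*, had 1, 0, 4 and 0 counts in controls and 3, 2, 3 and 1 in cKO. *Ybx2* and *Ybx3*, which store and repress mRNAs of late genes such as the protamines, had 609 ± 196 and 300 ± 193 TPM in controls and 262 ± 22.2 and 110 ± 38.8 TPM in cKO. *Crem* itself had 38.2 ± 6.53 TPM in controls and 30.4 ± 2.21 TPM in cKO. These values are per gene, so they do not show which *Crem* transcripts were present or whether they encode the activator. *Taf7l*, of the germ cell transcription machinery, went the other way, at 171 ± 14.3 and 201 ± 13.9 TPM, with every cKO library above every control, as in 2.47% of all genes. EdgeR called none of the 16. Under an unadjusted p of 0.05, 8 were lower in cKO and 1 higher, beside 6.28% and 2.62% of all genes. DESeq2 called 2 (*Piwil1* and *Kctd19*), beside 1.51% of all genes. In *Piwil1*, *Kctd19* and *Ybx2*, every cKO library lay below every control, as in 3.03% of all genes. The median log2 fold change of the list was -0.40, or -0.27 without control 1, -0.49 without cKO 1 and -0.35 in replicates 2 to 4 alone.

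**Figure D3:**
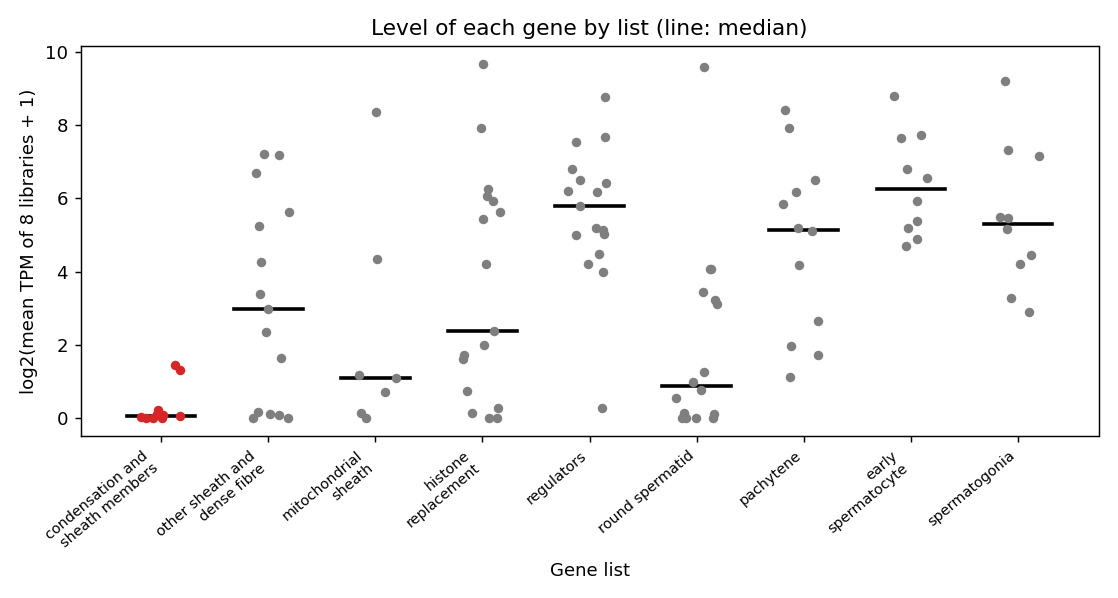
Level of each gene, as log2 of its mean TPM over 8 libraries plus 1, by gene list, with 1 point per gene and the median as a line. The 10 condensation and sheath genes, in red, lie near 0 apart from *Akap3* and *Tnp1*, while the median of the regulators is 55.0 TPM.

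Markers of germ cell stages were read in the same way. Of 16 round spermatid genes, 8 passed 3 counts in every library and 4 were at 0 in every library (*Spaca3*, *Spaca4*, *Spam1* and *Catsper1*). Bulk RNA does not show which cells carried these reads, so the name of the list does not place them in spermatids. *Tex101*, the most abundant, had 822 ± 94.3 TPM in controls and 712 ± 107 TPM in cKO (edgeR log2 fold change -0.19). The acrosomal gene *Acr* had 15.1 ± 8.17 TPM in controls and 4.54 ± 2.46 in cKO and was called by DESeq2 (adjusted p = 0.032), not by edgeR (adjusted p = 0.47). Of the 9 round spermatid genes tested, edgeR called none and DESeq2 called 1, beside 1.51% of all genes. Under an unadjusted p of 0.05 lay 2, both lower in cKO, beside 6.28% of all genes. In 8 the log2 fold change was negative, beside 48.6% of all genes. Their list median was -0.53, or -0.33 without control 1 and -0.53 without cKO 1. Pachytene markers summed to 717 to 2469 TPM in controls and 347 to 875 TPM in cKO. Their median log2 fold change was -1.07, or -0.25 without control 1, -1.47 without cKO 1 and -1.06 in replicates 2 to 4 alone. Their median was negative, as were those of the sheath and regulator lists. *Piwil1*, *Mybl1* and *Tbpl1* are in the regulator list too, and *Hspa2* and *H1f6* in the histone replacement list. Their part in those differences was not tested, and in bulk RNA fewer cells of a type and less RNA per cell cannot be told apart. Spermatogonial and early spermatocyte markers, 10 of 10 each above 3 counts in every library, had median log2 fold changes of 0.20 and -0.04. All 10 spermatogonial markers had a positive value, and the median was 0.08 without cKO 1. Under an unadjusted p of 0.05 lay 1 of them, higher in cKO, beside 2.62% of all genes. The early spermatocyte median ran from -0.08 to 0.09 when 1 library was left out. Peritubular myoid, macrophage and endothelial or blood markers had medians of 0.17, 0.06 and -0.13, which ran from 0.04 to 0.34, from -0.12 to 0.22 and from -0.26 to 0.05 when 1 library was left out. The macrophage median turned negative without control 1, and the endothelial or blood median turned positive without cKO 1.

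**Figure D4:**
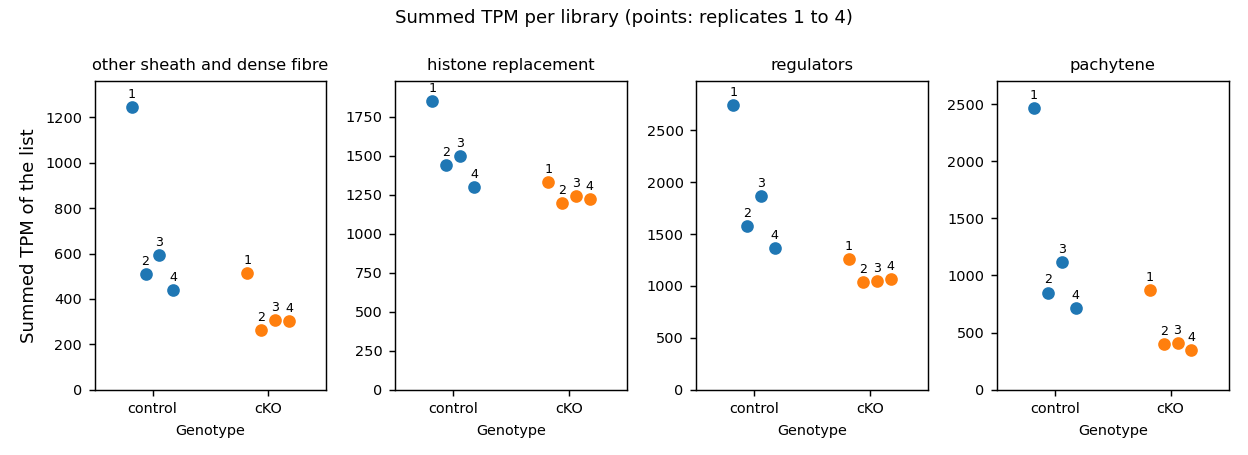
Summed TPM of 4 gene lists by genotype, 1 point per library numbered by replicate. Control 1 is the highest library in all 4 panels, at 1246 TPM for sheath and dense fibre genes and 2469 TPM for pachytene markers, and cKO 1 is the highest of the cKO libraries.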

How the data were processed

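Non-stranded poly(A) libraries of 4 control and 4 cKO germ cell samples had been sequenced with paired ends. The authors aligned the reads to mm39 with STAR 2.7.9a and quantified genes with RSEM 1.3.3, per the labels. They deposited RSEM expected counts, not normalized between samples, and TPM values, which the authors' RSEM scaled within each library for length and depth. Of the expected counts 6.37% were not whole, and all were rounded, although those of the 10 genes were whole. Genes with at least 1 TPM in at least 1 library (20187) were tested with edgeR 4.0.16 (TMM, robust quasi-likelihood F-test, Benjamini-Hochberg). R was 4.3.3, DESeq2 1.42.0, limma 3.58.1 and Python 3.11.15. Tests were tried on simulated counts. Nothing says that libraries came from separate litters, so p-values measure only the spread between these samples. Positions are from GENCODE on GRCm39, and gene starts from RefSeq (GRCm38.p6).

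The 10 genes and all lists were chosen with earlier results of these data known. Named are these genes, *Mgat2*, the 4 genes of highest mean TPM in each list, genes overlapping a member, the 5 closest to *Akap3* and genes shared between lists. Others were named after their values were seen, among them *Crem*, *Piwil1*, *Kctd19*, *Acr*, *Odf4*, *Fsip2*, *Tsga10*, *Fhl5*, *H1f9*, *H2al2a*, the neighbours and genes at 0. Not every such gene is described. Alternatives were DESeq2, its size factors, upper-quartile normalization, other filters, limma-trend on log2(TPM + 1) and log2(TPM + 0.1), a fit that was not robust, the replicate number as a block, leaving out each library and, added after seeing the data, replicates 2 to 4 alone.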

Additional observations from a re-analysis of the deposited data

Results flagged for a closer look

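In 7 of 46 groups of 4 libraries examined, 1 library stood far from the other 3 by Dixon's test at the 95% level. Only 38 groups had any spread, and chance gives such a gap in about 1 of 20 groups. In 3 of them the gap was a matter of single reads: *Prm2* had 1 count in cKO 3, *Fscn3* had 3 counts in control 3 and *Smcp* had 1 count in control 2, with 0 in the other libraries of the genotype.

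In 3 others cKO 1 stood above the other cKO libraries. Its mitochondrial sheath genes summed to 488.4 TPM against 251.8 to 285.2, its regulators to 1263 TPM against 1040 to 1068, and its pachytene markers to 875.1 TPM against 347.5 to 412.6. Peritubular myoid markers summed to 323.6 TPM in control 1 against 434.8 to 442.6 in the other controls.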

How the results depend on the processing

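None of the genes tested among the 10 was called between genotypes in any alternative run, and none lay under an unadjusted p of 0.05. These were *Akap3* and *Tnp1* in most runs, *Akap3* alone with filterByExpr, and 7 genes with no filter. The log2 fold change of *Akap3* ran from -0.40 to -0.22 over the alternatives and from -0.49 to -0.29 when 1 library was left out, and its adjusted p from 0.53 to 0.84. That of *Tnp1* ran from 0.66 to 1.83 and from 0.70 to 2.73, with adjusted p from 0.55 to 0.95, and edgeR's filterByExpr dropped the gene. Only *Akap3* passed 3 counts in every library, whichever library was left out, and 4 genes passed it in at least 1 library.

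The number of genes called over the whole table, 8 with edgeR, was 304 with DESeq2, 18 with upper-quartile normalization, 35 with no filter, 845 in replicates 2 to 4 alone, and 0 with filterByExpr, a fit that was not robust, or limma-trend on log2(TPM + 1) or log2(TPM + 0.1). At an unadjusted p under 0.05, these last held 1665, 1991, 1796 and 1869 genes. Leaving out 1 library gave 0 to 32 calls: 24 without control 1, 2 without control 2, 0 without control 3, 32 without control 4, 15 without cKO 1, 1 without cKO 2 and 0 without cKO 3 or cKO 4. The cause of these differences was not tested. A replicate block raised the calls to 1464 genes (7.25% of those tested), among them 8 sheath and dense fibre genes, 10 regulators and 8 pachytene markers. Same-numbered libraries deviated from their group means with r of 0.53, 0.14, 0.039 and 0.20 (mean 0.23, against -0.07 for differently numbered libraries). Of the 8 libraries, 4 correlated best with their own number. The third pair is near 0, and the labels name no litter or batch, so whether the numbers pair the mice is not known. Of the 10 genes, 3 had no read and no test. The mitochondrial sheath median was -0.28 and -0.23 with limma-trend (pseudocounts 1 and 0.1) and -1.42 in replicates 2 to 4 alone, and the round spermatid median was -0.53, or -0.72 with filterByExpr, -0.30 with limma-trend on log2(TPM + 1) and -0.33 without control 1.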
